A study of Homo sapiens with 9 samples.

Results

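The genes of cholesterol and fatty acid synthesis were followed in A549 cells, an established human lung adenocarcinoma line, across 3 culture conditions. The set was a list of 35 gene symbols from sterol synthesis, sterol sensing, fatty acid synthesis and desaturation, and its members were the probe sets with a symbol on that list. The array annotation named 29 of the 35 genes, through 32 probe sets, of 14884 genes named in all and 53617 probe sets in the table. FDFT1, LSS, CYP51A1, SC5D, ACSL3 and GPAM had no named probe set and are not analysed here. Genes were tested where their probe set reached the median of its array on 3 or more of the 8 arrays used, which gave 10916 genes, 28 of them members. Those 28 members, 15 of cholesterol synthesis and 13 of fatty acid synthesis, read 62.0 or more on every array, against array medians of 23.3 to 24.1. The member left out was HSD17B7, a sterol reductase, which read 13.0, 20.2 and 23.5 with FP001, 19.8, 16.1 and 14.7 on low-attachment plates in normal medium, and 23.8 and 28.3 on attachment plates.

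All cells were grown for 5 days in 96-well plates in DMEM with 10% fetal bovine serum, and total RNA was hybridised to 1 Affymetrix array per sample. The FP001 group was kept on low-attachment plates, whose surface cells adhere to poorly, with the additive FP001 at 0.015% (w/v). FP001 is known here by its code name only. The low-attachment group had the same kind of plate without the additive, and the attachment group had ordinary plates without it; Milli-Q water was the vehicle. Each group had 3 arrays, but attachment replicate 1 was left out, so 3, 3 and 2 arrays were compared. The values are the intensities the authors deposited, on a linear scale with no unit of their own, and levels were not compared between genes; a sum over a marker list adds its probe sets as deposited and follows the brightest. The labels name a 3′ IVT labelling kit, but the probe set identifiers resemble those of whole-transcript arrays, so the stretch of each transcript measured is uncertain. The labels do not say whether replicates were separate cultures, so the p-values cover only the spread among these arrays, which may be technical, and precision is limited by how few arrays there were.

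Cells make cholesterol and fatty acids from the same cytosolic acetyl-CoA. In the mevalonate arm acetyl-CoA becomes isoprenoid units, which the sterol arm joins, cyclises and trims to cholesterol; in the other branch acetyl-CoA is carboxylated, assembled to palmitate, and then elongated and desaturated. Both are driven by the SREBP transcription factors, which are held in the endoplasmic reticulum by SCAP and INSIG proteins when sterols are plentiful and are released and cleaved when sterols fall. The SREBP-2 protein, from SREBF2, is best known for sterol genes and SREBP-1c, from SREBF1, for fatty acid genes; transcription of SREBP-1c is also under insulin and LXR control. Tumour cell lines commonly run these pathways at a high rate.

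The 8 arrays used had rank correlations of 0.961 to 0.985 with each other, whereas attachment replicate 1 had a median intensity of 15.8 and no rank correlation above −0.00191 with another array. Of 6 epithelial markers 5 were named, and their summed intensity was 5410 to 5986 with FP001, 4679 to 5036 on low-attachment plates and 4467 to 4647 on attachment plates. The members of that list moved apart. KRT19, a keratin, was called higher than on attachment plates with FP001 (2.93-fold) and in normal medium (2.04-fold), and the keratin KRT18 was called higher with FP001 (1.23-fold). EPCAM, an adhesion molecule, was called 1.44-fold lower with FP001, and the keratin KRT7 1.45-fold lower in normal medium. Surfactant and other alveolar type 2 markers, 5 of 6 named, summed to 142 to 182 with FP001, 143 to 158 on low-attachment plates and 133 to 137 on attachment plates. Adipocyte and hepatocyte markers, 4 of 6 named, summed to 117 to 135 with FP001, 150 to 223 on low-attachment plates and 144 to 158 on attachment plates. That sum followed TF, which averaged 41.5 with FP001, 104.8 on low-attachment plates and 81.1 on attachment plates. PLIN1 averaged 32.3, 29.9 and 26.0 and APOA1 30.7, 30.6 and 27.9 in the same order. None of these was called in any of the 3 comparisons. Leukocyte markers, 3 of 6 named, summed to 631 to 967 with FP001, 564 to 801 on low-attachment plates and 428 to 509 on attachment plates, with LYZ, which encodes lysozyme, called higher on both low-attachment groups than on attachment plates, and CD68, a lysosomal macrophage marker, called higher with FP001 (1.67-fold). CD14, also tested, had log2 fold changes over attachment plates of −0.12 with FP001 and 0.08 in normal medium, neither called. Fibroblast markers, 2 of 6 named, summed to 82.7 to 440.1 with FP001, 27.9 to 250.4 on low-attachment plates and 31.6 to 96.7 on attachment plates, with DCN at 3.32 to 3.91 on every array. LUM made up nearly all of that sum, at 79.0 to 436.5 with FP001, 24.0 to 246.6 on low-attachment plates and 28.2 to 93.3 on attachment plates. LUM was not called in any of the 3 comparisons. Endothelial markers, 3 of 4 named, summed to 55.8 to 71.5 with FP001, 51.2 to 55.9 on low-attachment plates and 46.1 to 52.3 on attachment plates. Their part in the results below was not tested. In such bulk RNA, fewer cells of a kind and less RNA per cell cannot be told apart.

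In normal medium, 2 of 4 tested genes of fatty acid assembly, 1 of 5 of elongation and desaturation and 1 of 3 of acetyl-CoA supply were called lower on low-attachment plates than on attachment plates, another of acetyl-CoA supply was called higher, and no tested gene of cholesterol synthesis passed the test. SCD, FASN, SREBF1 and ACLY fell by 1.28 to 1.58 fold, and AACS rose 1.55-fold. Called means an adjusted p under 0.05 in limma, with Benjamini-Hochberg adjustment over all 10916 genes. By that rule 5 of 28 members were called, and all 5 stood among the 13 fatty acid genes; over all genes 10.1% were called. One direction at a time, 1 member was called higher, against 4.31% of all genes, and 4 were called lower, against 5.76%. Arrays of the groups did not overlap for 5 members that read higher (22.2% of all genes) and 10 that read lower (23.4%). The F-test over the 3 groups together called the same 5 members, against 14.0% of all genes. The median log2 fold change was −0.21 over the fatty acid genes, −0.03 over the cholesterol genes and 0.01 over all genes tested. The balance over all genes depended on the scaling: 471 genes rose and 629 fell with the deposited scale, against 612 and 512 after quantile normalization, and the called members named here kept their direction under both.

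SCD, the desaturase that turns saturated into monounsaturated fatty acids, read 2912, 2824 and 2916 with FP001, 2530.3, 2471 and 2454 on low-attachment plates, and 4122 and 3735 on attachment plates. Every low-attachment array lay below both attachment arrays, and the FP001 arrays lay between the other groups. The fall on low-attachment plates was 1.58-fold (log2 fold change −0.66 ± 0.07 SE, limma adjusted p = 0.000514), the largest by log2 among the members called there. A second SCD probe set averaged 99.6 with FP001, 90.2 on low-attachment plates and 175.0 on attachment plates, a log2 difference of −0.96 between low-attachment and attachment plates. SCD was called under each of the 18 alternatives that left out attachment replicate 1, with log2 fold changes from −0.81 to −0.54.

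FASN, the multidomain enzyme that assembles palmitate, read 212, 257 and 257 with FP001, 208, 230.3 and 209 on low-attachment plates, and 333 and 321 on attachment plates. It fell 1.52-fold on low-attachment plates (log2 fold change −0.60 ± 0.11 SE, limma adjusted p = 0.00644), and no array of the low-attachment groups reached an attachment array. ACACA, the acetyl-CoA carboxylase that makes FASN's substrate, read 300.1, 398 and 377 with FP001, 350.4, 365 and 290.1 on low-attachment plates, and 494 and 425 on attachment plates. The groups did not overlap there either, but the arrays of each group were spread further apart and the log2 fold change of −0.46 ± 0.14 missed the threshold (limma adjusted p = 0.0632). MID1IP1, which activates that carboxylase by promoting its polymerisation, had a log2 fold change of 0.04.

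SREBF1, the transcription factor gene of the fatty acid branch, read 199, 196 and 207 with FP001, 185, 168 and 168 on low-attachment plates, and 246 and 212 on attachment plates. The 3 groups were ordered without overlap, with attachment highest and low attachment in normal medium lowest. The fall on low-attachment plates was 1.32-fold (log2 fold change −0.40 ± 0.10 SE, limma adjusted p = 0.0263).

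The enzymes that supply acetyl-CoA went separate ways. ACLY, which splits citrate to cytosolic acetyl-CoA, read 1899, 2032 and 2225 with FP001, 1903, 2091 and 1974 on low-attachment plates, and 2379 and 2739 on attachment plates, a fall of 1.28-fold on low-attachment plates (log2 fold change −0.36 ± 0.09 SE, limma adjusted p = 0.0295). AACS, which activates acetoacetate in the cytosol and so feeds ketone bodies into lipid synthesis, read 231, 187 and 204 with FP001, 250.2, 197 and 190.3 on low-attachment plates, and 137 and 135 on attachment plates. All 6 arrays from low-attachment plates were above both attachment arrays, and the rise was 1.55-fold (log2 fold change 0.63 ± 0.13 SE, limma adjusted p = 0.0144). ACSS2, which activates acetate, had a log2 fold change of 0.25 ± 0.14 and was not called.

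Of the other fatty acid genes none was called against attachment plates. FADS2 and FADS1, the desaturases of polyunsaturated fatty acids, had log2 fold changes of −0.28 and −0.05. ELOVL5, an elongase of polyunsaturated chains, had −0.21, and ELOVL6, which elongates palmitate, had −0.06. LPIN1, a phosphatidate phosphatase on the way to triglycerides and the single tested gene of acyl-CoA use, read 90.0, 86.1 and 100.2 with FP001, 99.6, 78.3 and 94.9 on low-attachment plates, and 81.2 and 87.9 on attachment plates. Its groups overlapped, and its log2 fold change was 0.10 ± 0.12.

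**Figure D1:**
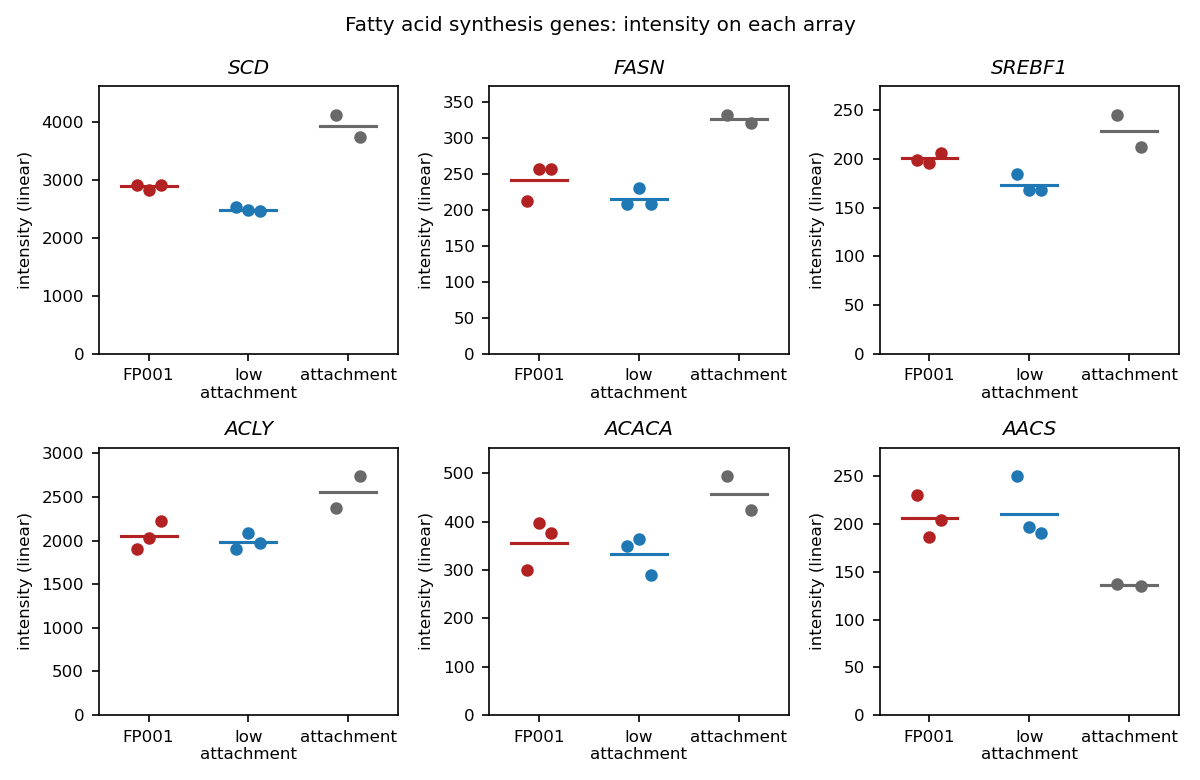
Intensity (linear scale, y axis from 0) of 6 genes of fatty acid synthesis on each array of the FP001, low-attachment and attachment groups; points are arrays and lines are group means, taken on the log2 scale and converted to intensity. SCD, FASN, SREBF1, ACLY and ACACA read lower on every array from low-attachment plates than on both attachment arrays, and AACS read higher.

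The promoters of SCD and AACS, the called members with the largest fall and the largest rise that have an entry in RefSeq's promoter table, are shown because they moved in opposite directions. Each is the 250 bases before the annotated start, 5′ to 3′ on the gene's strand, in GRCh38.p14, at chr10:100346983-100347232 (plus strand) for SCD and chr12:125065185-125065434 (plus strand) for AACS. Capitals mark the NF-Y box CCAAT on either strand and the sterol regulatory element TCACNCCAC on either strand with up to 1 mismatch.
SCD: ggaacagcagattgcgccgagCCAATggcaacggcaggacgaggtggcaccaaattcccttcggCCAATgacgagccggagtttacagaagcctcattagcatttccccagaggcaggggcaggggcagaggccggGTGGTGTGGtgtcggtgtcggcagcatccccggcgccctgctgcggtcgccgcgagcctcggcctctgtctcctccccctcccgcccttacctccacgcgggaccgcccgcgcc
AACS: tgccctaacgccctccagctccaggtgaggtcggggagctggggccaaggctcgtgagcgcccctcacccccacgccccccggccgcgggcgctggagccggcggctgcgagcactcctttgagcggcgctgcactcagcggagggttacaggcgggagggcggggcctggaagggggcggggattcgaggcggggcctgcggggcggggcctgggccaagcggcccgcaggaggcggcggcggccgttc
The SCD window held 2 NF-Y boxes and 1 match to the sterol regulatory element within 1 mismatch, whose first base lay 114 bases before the start. The AACS window held neither motif. Among the other called members, all lower, ACLY held both motifs, SREBF1 held neither and FASN had no entry. Whether the motifs had a part in the direction was not tested. Over the list, 32 of 35 genes had 44 promoter windows, and 19 of them (43.2%) held the element within 1 mismatch, against 20.9% of all 35116 promoters and 21.5% of the 22199 of protein-coding genes. The NF-Y box stood in 27 windows (61.4%), against 32.0% of all promoters, and the GC box GGGCGG in 38 (86.4%), against 42.6% of all and 53.7% of protein-coding ones. The E-box CACGTG stood in 4 windows (9.09%), against 6.34%. Such matches describe the letters of a window and do not show a bound site.

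The 5 calls depended on the few attachment arrays. Without attachment replicate 2 SCD alone was called, without attachment replicate 3 SCD, FASN and SREBF1 were, and without low-attachment replicate 3 SCD, FASN and AACS were, while calls over all genes went to 359, 452 and 721. ACLY was called under 11 of the 18 alternatives, SREBF1 under 14, AACS under 16 and FASN under 17. SREBF1 also lost its call without low-attachment replicate 2, and ACLY without low-attachment replicate 1 or FP001 replicate 2 and after quantile normalization.

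In the cholesterol branches the log2 fold changes on low-attachment plates against attachment plates lay between −0.30 and 0.38, with 6 of 15 above 0. In the mevalonate arm the largest was that of MVD, the decarboxylase that yields isopentenyl diphosphate. MVD read 198, 126 and 145 with FP001, 184, 145 and 136 on low-attachment plates, and 123 and 114 on attachment plates. All 6 arrays from low-attachment plates were above both attachment arrays, but replicate 1 stood far above its neighbours in both groups, and the log2 fold change of 0.38 ± 0.18 was not called (limma adjusted p = 0.215). The kinases MVK and PMVK, which phosphorylate mevalonate in turn, had log2 fold changes of −0.15 and 0.01. HMGCS1, the cytosolic HMG-CoA synthase, had −0.05. The isomerase IDI1 had 0.16, and FDPS, the farnesyl diphosphate synthase, had −0.08. A second FDPS probe set averaged 90.9 with FP001, 78.3 on low-attachment plates and 92.3 on attachment plates. Its log2 difference was −0.24 between low-attachment and attachment plates, and 0.22 between FP001 and low attachment, against 0.05 for the probe set used.

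In the sterol arm DHCR7, which reduces 7-dehydrocholesterol to cholesterol, differed most. It read 676, 543 and 561 with FP001, 658, 489 and 501 on low-attachment plates, and 673 and 669 on attachment plates. Replicate 1 of both low-attachment groups was close to the attachment arrays and the other 4 arrays were below, and the log2 fold change of −0.30 ± 0.14 was not called (limma adjusted p = 0.188). The squalene epoxidase SQLE had 0.08 and the sterol reductase TM7SF2 had 0.17. MSMO1 and NSDHL, which remove methyl groups from the sterol ring, had 0.02 and −0.02, and the isomerase EBP had −0.08.

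Among the genes of sterol sensing and transport, STARD4, a cytosolic sterol carrier, read 141, 99.9 and 125 with FP001, 126, 118 and 99.2 on low-attachment plates, and 149 and 127 on attachment plates. Its log2 fold change on low-attachment plates was −0.27 ± 0.15 and was not called. SREBF2, the transcription factor gene of the sterol branch, had −0.16, and INSIG1, which retains the SREBP and SCAP complex in the endoplasmic reticulum, had −0.03. SREBF2 was not called in any of the 3 comparisons. Its promoter is shown because it was 1 of 2 in the set, with that of MID1IP1, that held the sterol regulatory element with no mismatch, against 0.883% of all promoters. It lies at chr22:41832855-41833104 (GRCh38.p14, plus strand, from RefSeq), and capitals mark the element and the NF-Y box as above.
SREBF2: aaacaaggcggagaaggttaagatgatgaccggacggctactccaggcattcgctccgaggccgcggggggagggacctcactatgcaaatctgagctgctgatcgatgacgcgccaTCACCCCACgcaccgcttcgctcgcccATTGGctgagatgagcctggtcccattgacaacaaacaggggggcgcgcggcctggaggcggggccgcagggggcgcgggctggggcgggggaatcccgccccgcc
The element's first base lay 133 bases before the start.

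**Figure D2:**
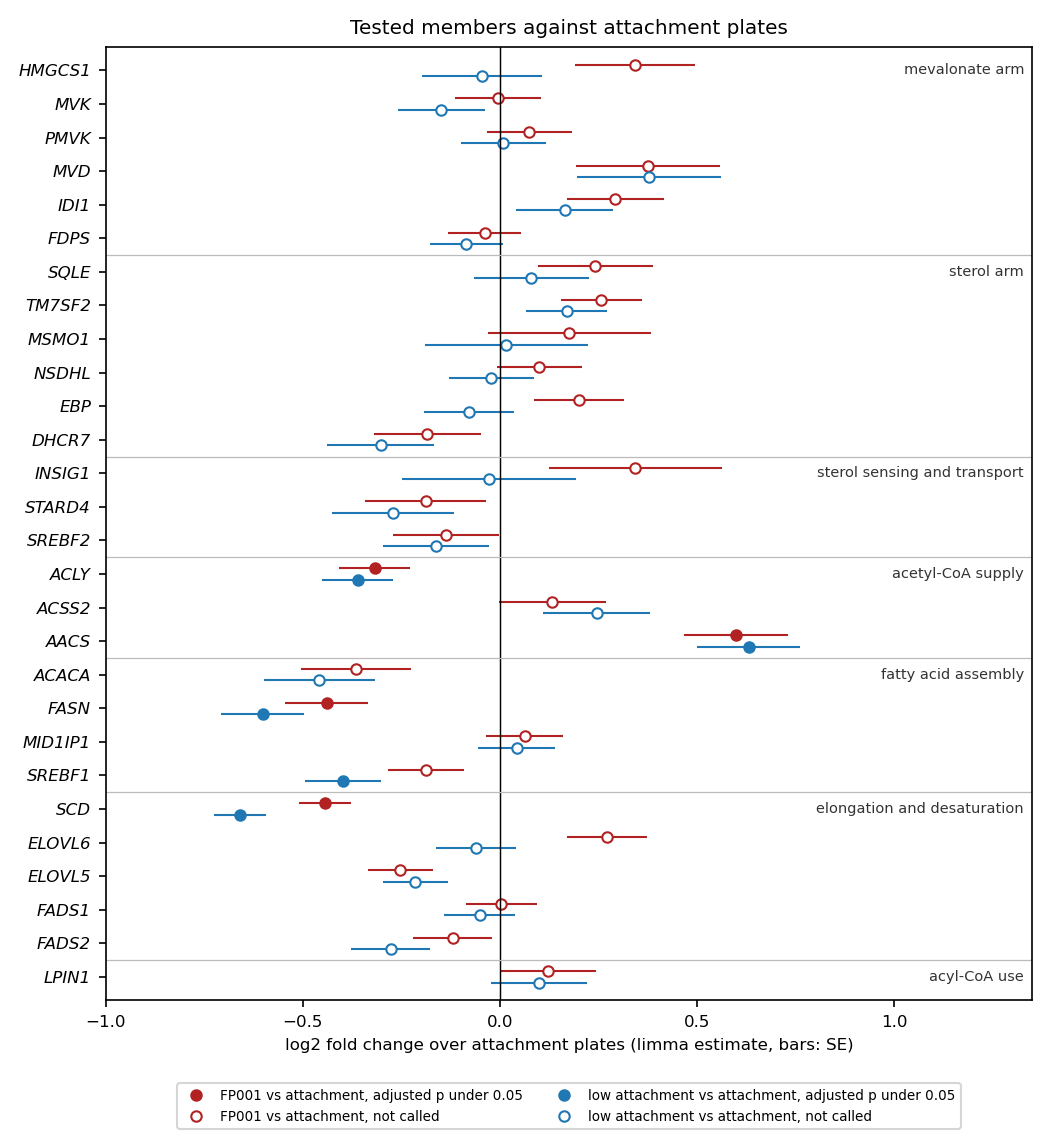
Log2 fold change over attachment plates (x axis, limma estimate with SE bars) of the 28 tested members by branch, for FP001 and for low attachment in normal medium; filled points have an adjusted p under 0.05. The filled points are AACS on the right and ACLY, FASN, SCD and, without FP001, SREBF1 on the left, and no filled point lies in the 3 cholesterol branches.

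Cells on low-attachment plates with FP001 were set against the same 2 attachment arrays, so this comparison is not independent of the one above, and plate and additive differ together in it. AACS was higher and SCD, FASN and ACLY were lower than on attachment plates, 4 of 28 members, where 19.5% of all genes were called. That was 1 member higher (8.08% of all genes) and 3 lower (11.4%), and arrays did not overlap for 9 members that read higher (26.5%) and 7 that read lower (26.2%). AACS rose 1.51-fold (log2 fold change 0.60 ± 0.13 SE, limma adjusted p = 0.0116). SCD fell 1.36-fold (−0.44 ± 0.07, adjusted p = 0.00168), FASN 1.36-fold (−0.44 ± 0.11, adjusted p = 0.0173) and ACLY 1.25-fold (−0.32 ± 0.09, adjusted p = 0.0332). SREBF1, at −0.19 ± 0.10, was not called (adjusted p = 0.189), and whether its change differed between media is the comparison of FP001 with low attachment given below. ACACA had −0.36 ± 0.14 and ELOVL5 −0.25 ± 0.08, with limma adjusted p of 0.0911 and 0.0543.

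The cholesterol genes gave no call with FP001 against attachment plates either, with 10 of 15 above 0 and a median log2 fold change of 0.18, against 0.02 over all genes tested and −0.12 over the fatty acid genes. The highest were MVD at 0.38, HMGCS1 and INSIG1 at 0.34 each, IDI1 at 0.29, TM7SF2 at 0.26 and SQLE at 0.24. ELOVL6, at 0.27 ± 0.10 (limma adjusted p = 0.0828), was called after quantile normalization and after median centring, under both of which ACLY lost its call (adjusted p = 0.0811 and 0.0619). When either attachment array was left out SCD alone was called among the members, and calls over all genes, 2126, went to 661 and 1115. Without FP001 replicate 1 or FP001 replicate 2 ACLY lost its call, and calls over all genes were 1276 and 1338. Of the 2126 genes 882 rose and 1244 fell, against 1241 and 968 after quantile normalization.

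The comparison of FP001 with low attachment in normal medium asks what the additive did on the same kind of plate. No member was called when arrays were treated as unpaired, with 0.110% of all genes called (0.0366% higher and 0.0733% lower), and the lowest limma adjusted p among members was 0.219, that of SCD and ELOVL6. Unadjusted, 5 of 28 members had a p under 0.05 (SCD, ELOVL6, SREBF1, HMGCS1 and EBP), against 11.6% of all genes. The estimates leaned to one side: 24 of 28 members, and 14 of 15 cholesterol genes, were above 0, with median log2 fold changes of 0.11 and 0.12, against 5632 of 10916 genes above 0 and a median of 0.01 over all genes.

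Arrays with the same replicate number deviated together in these groups, with correlations of 0.483, 0.309 and 0.231 between deviations from the group means, so a fit with the replicate number as a block was set beside the unpaired one. Between FP001 and low-attachment arrays of unlike number the correlations were −0.353 to 0.133. Between attachment arrays and arrays of unlike number in these groups they were −0.269 to 0.269. The pairing was thus read from the same arrays as the blocked calls. With the block HMGCS1 and INSIG1 rose with FP001, 2 of 28 members, where 1.30% of all genes were called and 0.458% were called higher. HMGCS1 read 527, 387 and 407 with FP001, 395, 326 and 288 on low-attachment plates, and 334 and 354 on attachment plates. The pairs by number differed by log2 0.42, 0.25 and 0.50, although FP001 replicate 2 was below low-attachment replicate 1, so the groups overlapped. The rise was 1.31-fold (log2 fold change 0.39 ± 0.07 SE, limma adjusted p = 0.0324 with the replicate block and 0.322 without).

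INSIG1, itself a target of the SREBPs, read 586, 418 and 392 with FP001, 491, 307 and 295 on low-attachment plates, and 389 and 335 on attachment plates. Each FP001 array was above its low-attachment partner, by log2 0.26, 0.45 and 0.41, while replicate 1 was the highest array of both groups. The rise was 1.29-fold (log2 fold change 0.37 ± 0.07 SE, limma adjusted p = 0.0324 with the replicate block and 0.512 without). In a blocked fit without the pair of replicate 1, no member was called. HMGCS1 then had 0.37 (limma adjusted p = 0.247) and INSIG1 had 0.43 (adjusted p = 0.136). Fits without the pair of replicate 2 or of replicate 3 called both genes among 3 and 5 members, and over all genes the 3 fits called 10, 395 and 915. A blocked fit of the 6 arrays from low-attachment plates alone called HMGCS1, INSIG1, SCD, ELOVL6 and EBP, 5 of 28 members, all higher with FP001, where 4.27% of all genes were called.

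The promoters of these 2 genes are shown as those of the members that rose together in the blocked fit. The HMGCS1 window is that of the first listed of 2 starts, at chr5:43313413-43313662 (minus strand), and the INSIG1 window lies at chr7:155297628-155297877 (plus strand), both from RefSeq in GRCh38.p14, with capitals as above.
HMGCS1: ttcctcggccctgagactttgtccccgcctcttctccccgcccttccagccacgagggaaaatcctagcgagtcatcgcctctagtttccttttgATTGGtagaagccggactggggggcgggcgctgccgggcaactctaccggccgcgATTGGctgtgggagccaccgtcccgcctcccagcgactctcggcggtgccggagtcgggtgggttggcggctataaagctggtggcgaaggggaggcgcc
INSIG1: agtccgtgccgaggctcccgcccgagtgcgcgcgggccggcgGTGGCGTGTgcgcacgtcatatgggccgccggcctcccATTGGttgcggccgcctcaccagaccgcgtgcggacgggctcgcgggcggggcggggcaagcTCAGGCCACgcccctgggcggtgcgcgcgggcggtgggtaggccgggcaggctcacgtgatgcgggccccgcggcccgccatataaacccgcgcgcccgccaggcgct
HMGCS1 held 2 NF-Y boxes and no match to the sterol regulatory element within 1 mismatch in this window. INSIG1 held 2 such matches, 1 NF-Y box and 1 E-box.

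Other members read higher with FP001 in every pair without passing the test. EBP read 396, 329.7 and 338 with FP001, 330.2, 278 and 269 on low-attachment plates, and 301 and 314 on attachment plates (limma adjusted p = 0.0717 with the block). ELOVL6 read 272, 240.3 and 284 with FP001, 222, 197 and 213 on low-attachment plates, and 211 and 228 on attachment plates (limma adjusted p = 0.0513 with the block). Its FP001 arrays lay above all 5 others, and its pairs differed by log2 0.29, 0.29 and 0.42. SCD differed by log2 0.20, 0.19 and 0.25 (adjusted p = 0.0863 with the block), and SREBF1 by 0.11, 0.22 and 0.30 (0.234). For both, the FP001 arrays lay above every low-attachment array, as they did for ELOVL6 and FADS2, 4 members in all, where 8.48% of all genes were so ordered; no member lay below without overlap, against 9.01%. Higher with FP001 in all 3 pairs were 13 of 28 members, 8 of 15 cholesterol genes and 5 of 13 fatty acid genes, against 20.8% of all genes; ACSS2 and ELOVL5 were lower in all 3, against 20.7%.

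**Figure D3:**
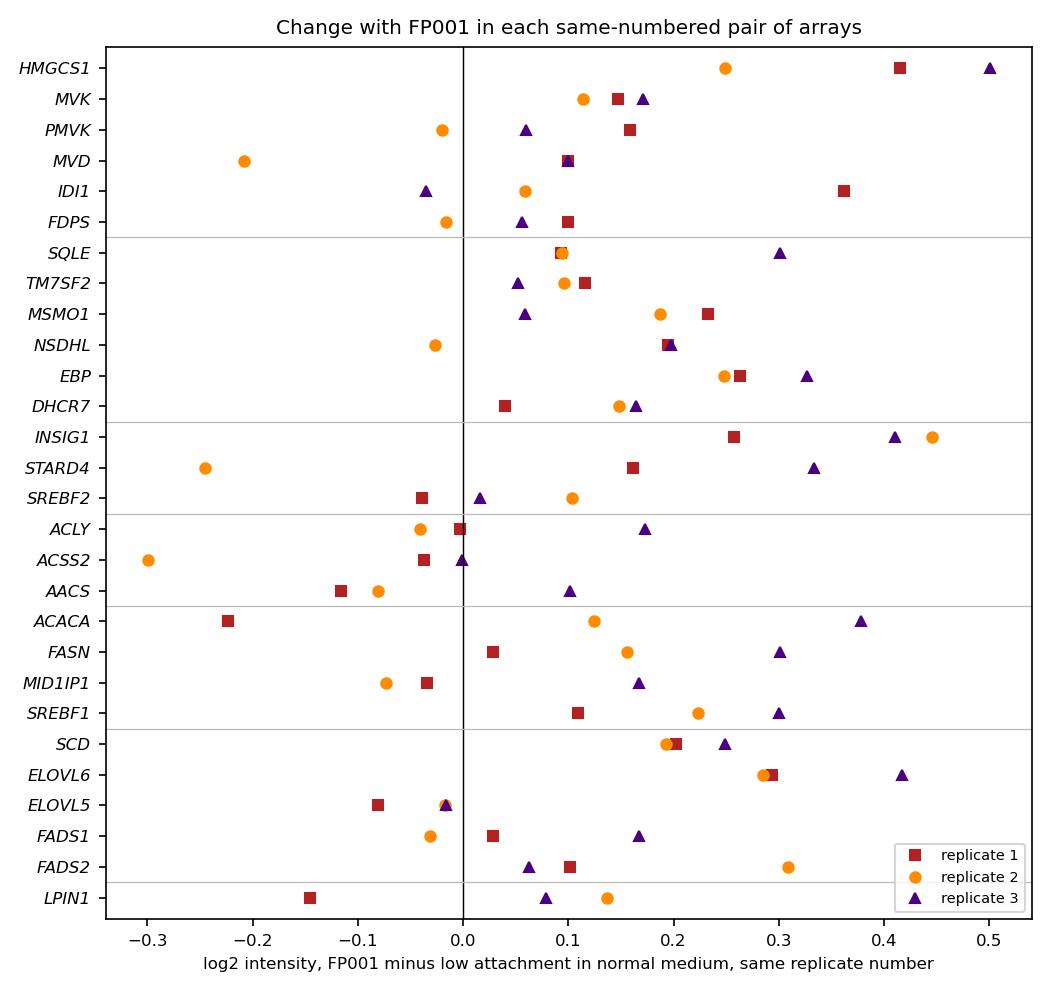
Difference in log2 intensity between the FP001 array and the low-attachment array with the same replicate number (x axis), for the 28 tested members in the order of their branches; symbols mark the replicate numbers. HMGCS1, INSIG1, EBP, ELOVL6 and SCD are to the right of 0 in all 3 pairs, and ACSS2 and ELOVL5 to the left.

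Replicate 1 carried the highest sterol gene values in both low-attachment groups. It was the highest of 3 arrays for 14 of 15 cholesterol genes with FP001 and for 13 of 15 in normal medium, and in both groups for 13 of 15, against 37.0%, 34.3% and 18.4% of all genes. Of the 13 fatty acid genes 4, 9 and 4 did so. The median of the cholesterol genes, as log2 over the attachment mean, was 0.37, 0.05 and 0.12 on FP001 replicates 1 to 3, 0.10, −0.12 and −0.12 on low-attachment replicates 1 to 3, and 0.01 and −0.01 on attachment replicates 2 and 3. MSMO1 read 1126, 702 and 750.1 with FP001, 958, 616 and 720.1 on low-attachment plates, and 751 and 736 on attachment plates. SQLE read 666, 507 and 559 with FP001, 625, 475 and 453 on low-attachment plates, and 498 and 472 on attachment plates. Both genes thus read highest on replicate 1 with and without FP001. The labels do not say what the replicate number stands for, and its part in these values was not tested.

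A fit without replicate 1 of both low-attachment groups was made because those arrays read high for sterol genes, so lower sterol gene means follow from that choice and its calls of sterol genes support nothing further. DHCR7 was then called lower on low-attachment plates than on attachment plates (log2 fold change −0.44, limma adjusted p = 0.0046) and lower with FP001 than on attachment plates (−0.28, adjusted p = 0.0248), where 5 members and 17.9% of all genes were called. ACACA and FADS2 were also called lower on low-attachment plates in that fit, at −0.49 and −0.34, next to SCD, FASN, SREBF1, ACLY and AACS, which made 8 members, against 10.6% of all genes. With the replicate block over the 8 arrays DHCR7 was also called lower than on attachment plates, which is not separate support. It had −0.42 in normal medium (limma adjusted p = 0.0036), where 8 members and 12.6% of all genes were called. With FP001 it had −0.30 (adjusted p = 0.0145), where 6 of 28 members and 2367 of all 10916 genes were called, a like share. Replicate 1 has no attachment array in that fit.

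**Figure D4:**
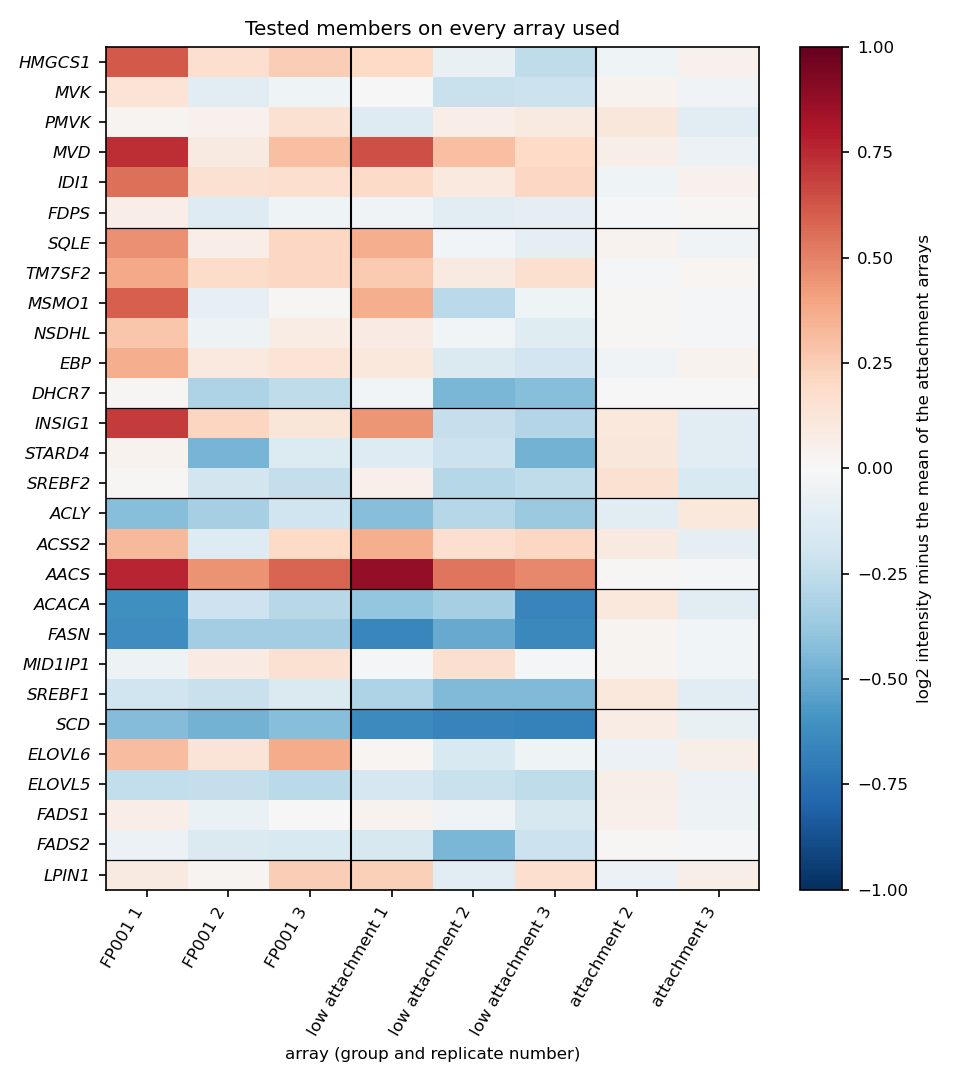
Log2 intensity minus the mean of the 2 attachment arrays (colour scale from −1 to 1) for the 28 tested members, rows by branch, on the 8 arrays used, columns by group and replicate. The red cells of the upper rows, the sterol genes, concentrate in replicate 1 of the FP001 and low-attachment groups, and the blue rows of ACLY, ACACA, FASN, SREBF1 and SCD run across all 6 arrays from low-attachment plates.

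Genes around these branches were taken from 5 further lists. Of other genes of sterol synthesis and SREBP control, 7 of 14 were tested. None was called on low-attachment plates against attachment plates, and with FP001 SCAP, the sterol sensor that escorts the SREBPs, was 1.25-fold higher than on attachment plates (log2 fold change 0.33 ± 0.08 SE, limma adjusted p = 0.0201). ACAT2, which condenses acetyl-CoA at the head of the mevalonate arm, averaged 284 with FP001, 204 on low-attachment plates and 231 on attachment plates. It was named after its values were seen. ACAT2 was higher with FP001 than on low-attachment plates by log2 0.47, 0.44 and 0.50 in the 3 pairs (log2 fold change 0.47, limma adjusted p = 0.0109 with the replicate block and 0.138 without). Without the pair of replicate 1 the blocked adjusted p was 0.12.

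Of genes of lipoprotein uptake and sterol traffic 5 of 12 were tested, and the cholesterol esterifying enzyme SOAT1 was called higher on low-attachment plates than on attachment plates (1.32-fold, log2 fold change 0.40 ± 0.09 SE, limma adjusted p = 0.0172). It averaged 577 with FP001, 641 on low-attachment plates and 486 on attachment plates, and its log2 fold change with FP001, 0.25, was not called. Of the LXR list 1 of 6 was tested: LPCAT3, a phospholipid acyltransferase, averaged 849 with FP001, 845 on low-attachment plates and 1076 on attachment plates, with log2 fold changes of −0.34 (limma adjusted p = 0.0382) and −0.35 (adjusted p = 0.0523) for FP001 and for low attachment over attachment plates. SCAP was called under 15 of 18 alternatives, SOAT1 under 16 and LPCAT3 under 10. Each lost its call without attachment replicate 3. SCAP also lost it without attachment replicate 2 or FP001 replicate 2, and SOAT1 without low-attachment replicate 2. LPCAT3 also lost it under quantile normalization and without any 1 of 4 other arrays: FP001 replicates 2 and 3, replicate 3 of the low-attachment group, and attachment replicate 2.

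Among other genes of fatty acid and glycerolipid synthesis 19 of 29 were tested, and 3 rose and 3 fell with FP001 (8.08% and 11.4% of all genes), and 1 rose and 2 fell on low-attachment plates in normal medium (4.31% and 5.76%). ELOVL2, an elongase of long polyunsaturated chains, averaged 104 with FP001, 106 on low-attachment plates and 288 on attachment plates, a larger fall than that of any of the 28 members. It was 2.78-fold lower with FP001 (log2 fold change −1.48 ± 0.25 SE, limma adjusted p = 0.00314) and 2.72-fold lower on low-attachment plates in normal medium (−1.44 ± 0.25, adjusted p = 0.00578), each against attachment plates. The elongase ELOVL7 was lower too, at log2 fold changes of −0.41 with FP001 and −0.61 in normal medium. Other elongases went the other way. With FP001, ELOVL4 and ELOVL1 were called higher than on attachment plates, at 0.42 and 0.31 (limma adjusted p = 0.0452 and 0.0250). Neither was called in normal medium, and with FP001 they kept their calls under 11 and 14 of the 18 alternatives. SCD5 was called lower with FP001 than on attachment plates (log2 fold change −0.41, limma adjusted p = 0.0404). Its call held under 10 of the 18 alternatives, and it was not called in normal medium. PNPLA2, the triglyceride lipase of lipid droplets, was higher, at log2 fold changes of 0.51 with FP001 and 0.41 in normal medium. With FP001 ELOVL2 and PNPLA2 were called under each of the 18 alternatives, and ELOVL7 under 9. In normal medium ELOVL2 was called under 17 (not without attachment replicate 2), ELOVL7 under 16 (not when either attachment array was left out). PNPLA2 was called there under 13, and not with the mean of its probe sets or when either attachment array or low-attachment replicate 1 or 3 was left out. ACSL5, an acyl-CoA synthetase named after its values were seen, was lower with FP001 than on low-attachment plates, with log2 differences of −0.52, −0.95 and −0.57 in the 3 pairs (log2 fold change −0.68, limma adjusted p = 0.0412 with the replicate block and 0.23 without). Without the pair of replicate 1 its blocked adjusted p was 0.196.

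Of 21 genes of fatty acid oxidation 9 were tested. CPT1A, which admits long acyl chains to mitochondria, averaged 903 with FP001, 882 on low-attachment plates and 647 on attachment plates, with log2 fold changes of 0.48 (limma adjusted p = 0.0116) and 0.45 (adjusted p = 0.0244) for FP001 and for low attachment over attachment plates. PPARA, the nuclear receptor that drives oxidation genes, averaged 47.9 with FP001, 50.9 on low-attachment plates and 31.2 on attachment plates, with log2 fold changes of 0.62 with FP001 and 0.71 in normal medium. These 2 genes were the called ones on low-attachment plates in normal medium, where 4.31% of all genes were called higher. With FP001 the isomerase ECI1 joined them at 0.37, where 8.08% of all genes were called higher. ECI1 was called under 13 of the 18 alternatives. None of the 9 was called lower, against 5.76% of all genes in normal medium and 11.4% with FP001. ECI2 and HADH had log2 fold changes of −0.15 and −0.04 with FP001 and −0.19 and −0.21 in normal medium. Both CPT1A and PPARA lost their calls when either attachment array was left out, and in normal medium also without low-attachment replicate 1. CPT1A in normal medium lost its call without low-attachment replicate 2 as well, and PPARA with FP001 without FP001 replicate 1 or 3. In the unpaired comparison of FP001 with low attachment no gene of these 5 lists was called.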

How the data were processed

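Total RNA of A549 cells (100 ng per sample) was hybridised to 9 Affymetrix arrays. Each deposited value is a linear intensity of 1 probe set on 1 array; per the submitters' processing notes the authors used MAS5, with its version and settings not given in the sources used here. Sample titles gave groups and replicate numbers. GEO's platform annotation gave 1 symbol to 16098 probe sets, several to 0 and none to 37519. Attachment replicate 1 was left out by the rule of the set. Log2 of the intensity, with no pseudocount or further scaling, was fitted for 3 group means over 8 arrays with limma 3.58.1 in R 4.3.3 (lmFit, eBayes with trend, 5 residual and 5.60 prior degrees of freedom). Where a gene had several probe sets, the brightest was used. Group means were taken on log2 values. The fit was tested on simulated data for low attachment against attachment plates. It recovered 42% of changes of log2 0.5 and 96% of changes of log2 1, with 6.12% of called genes false. Small changes can thus go uncalled. Replicate numbers were taken to pair FP001 with low-attachment arrays because all 3 correlations exceeded 0.1. Those of attachment arrays with arrays of the same number were −0.256 to 0.138. FP001 replicate 3 with low-attachment replicate 2, of unlike number, also exceeded 0.1, at 0.133. Some attachment arrays did so with arrays of unlike number, up to 0.269 for attachment replicate 2 with low-attachment replicate 1. Members, branches and lists were chosen with earlier results of these data known, so no p over a list is given. Every member was accounted for: per-array values were given for members called in a comparison and, in a branch with none, for the member with the largest log2 change. The other lists name their called genes in part or in full. Alternatives covered scaling, pseudocount, filters, probe sets, the trend, the block and each array left out.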

Additional observations from a re-analysis of the deposited data

How the results depend on the processing

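With all 9 arrays, attachment replicate 1 included, no member and 0 genes were called in any of the 3 comparisons by limma, and 34 log2 fold changes of single genes changed sign. Of these, 8 were called in the main fit. On low-attachment plates against attachment plates they were ACLY at 2.94, SCD at 0.59, PNPLA2 at −0.0143 and PPARA at −0.80. With FP001 against attachment plates they were ACLY at 2.98, SCD at 0.80, ELOVL1 at −0.38 and PPARA at −0.89. The lack of rank correlation of attachment replicate 1 with the others is given above. Leaving out 1 array at a time gave 1 to 6 members and 359 to 1301 genes on low-attachment plates, 1 to 4 members and 661 to 2303 genes with FP001, each against attachment plates, and 0 members and 0 to 11 genes between FP001 and low attachment. With the replicate block, low attachment against attachment plates gave 8 members and 1375 genes, and FP001 against low attachment gave 2 members and 142 genes; the numbers do not pair the attachment arrays. Between FP001 and low attachment, median centring gave 19 genes and a fit without a trend 0. The settings chosen after seeing the data were the block over the 6 low-attachment arrays alone (5 members, 466 genes), the block without the pair of replicate 1 (0 members, 10 genes), of replicate 2 (3 members, 395 genes) or of replicate 3 (5 members, 915 genes), and leaving out replicate 1 of both low-attachment groups (8 members and 1156 genes on low-attachment plates, 5 and 1950 with FP001, each against attachment plates). The cause of these shifts was not tested. Of 2562 values of single genes under 23 alternatives, 2273 kept their sign and side of the threshold, 110 lost a call and 49 gained one with the same sign, and 130 changed sign: 8 called ones, given above, and 122 not called in either fit.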
